A study of Mus musculus with 3647 samples.

Results

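GABAergic interneurons of mouse M2 cortex, the secondary motor area of the frontal lobe, were examined as single nuclei. Of the nuclei of M2 cortex that had expression values, 93 were kept because Snap25, a neuronal vesicle-fusion protein, and the GABA-synthesising enzymes Gad1 and Gad2 were all above 0 and the sum of Gad1 and Gad2 exceeded Slc17a7, the vesicular glutamate transporter of cortical excitatory neurons. These members were 55.4% of the nuclei with values (95% Clopper-Pearson interval 47.5 to 63.02%) and 93 of 3647 samples in the series. They came from 3 plates: 44 of 77 nuclei on X061616p1, 19 of 43 on pfcP4 and 30 of 48 on pfcP6.

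The series collected nuclei from the thalamic reticular nucleus and other areas of mouse brain by a modified Smart-seq2 protocol, in which each library is 1 nucleus and the RNA is nuclear. M2 cortex, somatosensory cortex and hippocampus shared the same sort, on a violet DNA dye and GFP, and the design text calls all of these nuclei positive for Pvalb. The allele that carries GFP, the strain, the age, the sex and the animals behind each plate are not given in the sources used here. Each area was therefore counted as 1 sample, no test between areas was made, and the spread over plates is given as a description that may be technical. The same rule kept 46 of 73 and 43 of 76 nuclei on the 2 plates of somatosensory cortex and 24.8% of 440 nuclei on the 7 plates of hippocampus. Intervals on shares of nuclei cover counting error only.

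Cortical GABAergic interneurons arise in the medial and caudal ganglionic eminences (MGE and CGE) of the embryonic brain. MGE cells keep the transcription factors Lhx6 and Sox6 and become the Pvalb and Sst classes, while CGE cells include the Vip and Lamp5 classes. Pvalb cells fire fast, brief spikes on Kv3 potassium channels, target the soma and axon of excitatory cells, and carry a perineuronal net of aggrecan and related proteins. Pvalb is a calcium buffer, Tac1 encodes the precursor of substance P, Cort the somatostatin relative cortistatin, and Rbp4 the plasma carrier of retinol.

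Members were chosen by their own Snap25, Gad1, Gad2 and Slc17a7 values, so these are a description only. Plate means of Gad1 were 1212.9 TPM (transcripts scaled to the same total in each nucleus) on X061616p1, 681.5 on pfcP4 and 901.7 on pfcP6, and those of Gad2 were 135.6, 246.4 and 245.4 TPM. Gad1 thus had the highest plate mean and Gad2 the lowest on X061616p1. The lowest member values were 8.86 TPM for Gad1 and 1.59 TPM for Gad2. Slc17a7 was at 0 in 83 members and reached 93.2 TPM in the other 10. The nucleus just outside the last condition had 140.9 TPM of Gad1 and 2.09 TPM of Gad2 against 285.6 TPM of Slc17a7, and the one just inside had a sum of 348.9 against 65.3 TPM. Of the 75 nuclei left out, 36 had neither Gad gene, 29 had Gad2 without Gad1 and 9 had Gad1 without Gad2.

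Read depth cannot be read from TPM, so the number of genes above 0 stands in for it. Members had 2178 to 6625 detected genes with a median of 4217, and the plate medians were 4701 on X061616p1, 3932 on pfcP4 and 4018 on pfcP6. As the level in cells that should lack interneuron genes, 28 nuclei of the same plates with Slc17a7 and neither Gad gene were used, with a median of 4164 detected genes. Plate means differed widely: of 7351 genes with a mean of at least 10 TPM found in at least 20% of members, 40.96% stayed within 2-fold over the 3 plates and 19.2% differed more than 4-fold. Xist, the RNA of the inactive X chromosome, was found in 92 of 93 members.

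The label of the sort was checked against its markers. Pvalb was found in 61 of 93 members, 65.6% (55.02 to 75.1%), against 1 of 28 Slc17a7 nuclei, so Pvalb was listed at 0 in 32 members of a sort described as positive for it, which is non-detection at an unknown depth. On X061616p1, 36 of 44 members held Pvalb at 9.56 to 1643 TPM with a median of 220 TPM. On pfcP4, 10 of 19 held it at 17.3 to 798.6 TPM (median 111.3), and on pfcP6, 15 of 30 at 35.2 to 802.8 TPM (median 110). Plate means over all members were 270.3, 92.04 and 104.2 TPM, a mean of 155.5 ± 99.6 (SD over 3 plates). X061616p1 stood above both other plates in Pvalb and also in detected genes. Members with Pvalb had a median of 4343 detected genes and those without it 3969, and the part of depth in the Pvalb share was not tested.

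Tac1 and Rbp4 were found in fewer members but at far higher levels per nucleus. Tac1 was found in 53 members, 56.99% (46.3 to 67.2%), and 27 of 44 members of X061616p1 held it at 10.5 to 2741 TPM with a median of 771.6. Both pfcP plates were alike in this, with 10 of 19 members at 80.8 to 3330 TPM (median 880) and 16 of 30 at 18.1 to 2606 TPM (median 707.4). Tac1 plate means were 602.7, 612.5 and 443.2 TPM, a mean of 552.8 ± 95.05 (SD over 3 plates). Rbp4 was found in 40 members, 43.01% (32.8 to 53.7%), at 18.5 to 4107 TPM in 20 of 44 members of X061616p1, 50.1 to 2126 in 9 of 19 of pfcP4 and 147.3 to 1983 in 11 of 30 of pfcP6. Rbp4 plate means of 452.97, 366.1 and 368.7 TPM gave 395.9 ± 49.4 (SD over 3 plates), a smaller relative spread than that of Pvalb. Tac1 and Rbp4 were each found in 1 of the 28 Slc17a7 nuclei.

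Cort was the rarest of the 4 genes. It was found in 25 members, 26.9% (18.2 to 37.1%): 14 of 44 on X061616p1, 3 of 19 on pfcP4 and 8 of 30 on pfcP6. Values where it was found ran from 13.3 to 835.8 TPM, and plate means were 100.98, 46.4 and 103.97 TPM. In 1 of 28 Slc17a7 nuclei Cort was above 0. The plot of markers by nucleus shows the spread of each gene.

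**Figure D1:**
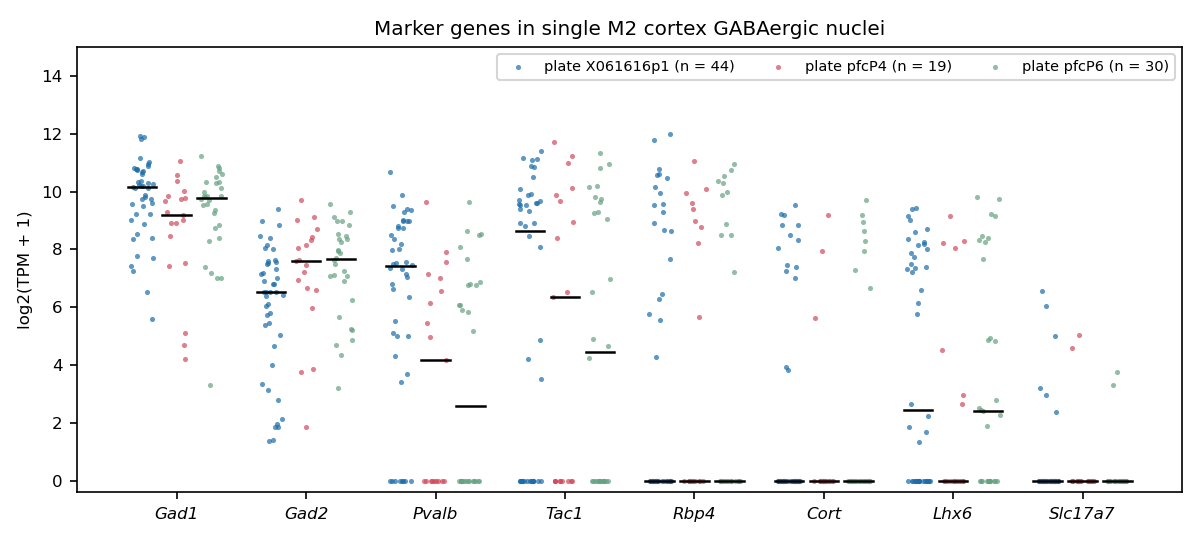
Each point is 1 M2 cortex GABAergic nucleus, coloured by plate, with log2(TPM + 1) on the vertical axis and bars at the plate medians over all members. Gad1 and Gad2 are above 0 in every member by the rule, while Pvalb, Tac1, Rbp4, Cort and Lhx6 each split into nuclei at 0 and nuclei above it, and Slc17a7 is at 0 in 83 of 93.

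Rbp4 and Tac1 also led a ranking of spread between nuclei. Among 4910 genes found in 20 to 80% of members on every plate, Rbp4 ranked 1 and Tac1 ranked 2 by the lowest of the 3 plate SDs of log2(TPM + 1), at 4.69 and 4.68. Pvalb, above that range on X061616p1, and Cort, below it on pfcP4, could not enter the ranking. Npy, a neuropeptide of several interneuron classes, ranked 12 at 4.35, while Nxph1, a neurexin ligand of MGE cells, ranked 68 at 4.14. The next genes after Tac1 were Rpl10, a ribosomal protein, H2afz, a histone variant, Ift20, an intraflagellar transport protein, and Eef1a1, a translation factor, at 4.65 to 4.41. Uqcrfs1, a subunit of respiratory complex III, Atp6v0c-ps2, Gm15881 and the ribosomal gene Rps13 completed the first 10, at 4.41 to 4.37. Rpl10, Eef1a1 and Rps13 have near-identical pseudogene copies and Atp6v0c-ps2 and Gm15881 are annotated as pseudogenes, so their values are uncertain. The measure grows with the level a gene reaches where it is found, and a high rank is no test of a subtype.

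**Figure D2:**
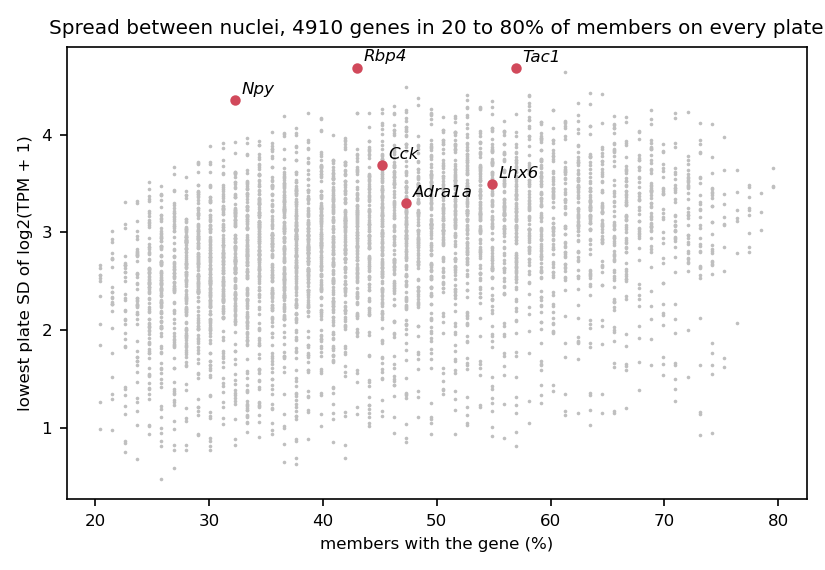
Each grey point is 1 of 4910 genes found in 20 to 80% of members on every plate, with the percent of members that have the gene on the horizontal axis and the lowest of the 3 plate SDs of log2(TPM + 1) on the vertical axis. Rbp4 (4.69) and Tac1 (4.68) are at the top, Npy (4.35) is close below, and Cck, Lhx6 and Adra1a lie within the cloud.

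The sequence before a RefSeq start of Rbp4 and of Tac1 is shown because these genes led the spread between nuclei and were also called between areas. In GRCm38 (mm10) with GENCODE M21 gene models, Tac1 lies at chr6:7554879-7565834 on the plus strand and Rbp4 at chr19:38116629-38125281 on the minus strand, while Pvalb lies at chr15:78191114-78206400 and Cort at chr4:149125034-149126763, both on the minus strand. No exon of another gene overlapped those of the 4 genes. The 250 bases before the RefSeq start (GRCm38.p6) were searched on both strands for TATAAA, the core promoter box, and for TAATTA, a core read by homeodomain factors, and matches are in capitals. The RefSeq start used lies inside the GENCODE gene for Tac1 and 17 bases from the principal start for Rbp4, which has 2 windows in the table.
Tac1 (chr6:7554811-7555060, plus strand): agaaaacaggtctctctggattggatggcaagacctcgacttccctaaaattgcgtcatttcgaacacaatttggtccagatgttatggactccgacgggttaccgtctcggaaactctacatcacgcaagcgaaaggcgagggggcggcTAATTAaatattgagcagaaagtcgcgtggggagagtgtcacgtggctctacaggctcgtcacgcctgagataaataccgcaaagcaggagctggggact
Rbp4 (chr19:38124812-38125061, minus strand): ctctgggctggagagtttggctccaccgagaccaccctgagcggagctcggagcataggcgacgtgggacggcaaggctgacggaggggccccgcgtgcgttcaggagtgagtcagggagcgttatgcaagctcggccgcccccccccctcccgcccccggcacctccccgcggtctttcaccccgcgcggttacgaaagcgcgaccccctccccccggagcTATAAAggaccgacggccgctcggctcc
The Rbp4 window held TATAAA with its first base 28 bases before the start, and 28 CG pairs against a median of 6 over all windows. The Tac1 window held 17 CG pairs and TAATTA 100 bases before the RefSeq start used, a position inside the GENCODE gene. Cort also held 1 TAATTA and Pvalb neither motif. Over 32851 windows of the same length, 12.4% held TATAAA and 4.84% held TAATTA, and a match describes these letters only.

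The 4 genes were found together in many combinations. Of 93 members, 10 had none of Pvalb, Tac1, Cort and Rbp4, 23 had 1, 29 had 2, 26 had 3 and 5 had all 4. The most frequent combinations were Pvalb with Tac1 (16 nuclei), Pvalb with Tac1 and Rbp4 (12) and Pvalb alone (11). Tac1 was found in 40 of 61 members with Pvalb (65.6%) and in 13 of 32 without it (40.6%). That order held on each plate, at 66.7% against 37.5% on X061616p1, 70% against 33.3% on pfcP4 and 60% against 46.7% on pfcP6, with as few as 8 nuclei behind a share. Median detected genes were also higher on each plate with Tac1 than without (4763 against 4530, 3941 against 3861 and 4068 against 3880.5). The same held with Pvalb (4769 against 4326.5, 4103 against 3418 and 4048 against 3988). The part of depth in this pair was not tested.

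**Figure D3:**
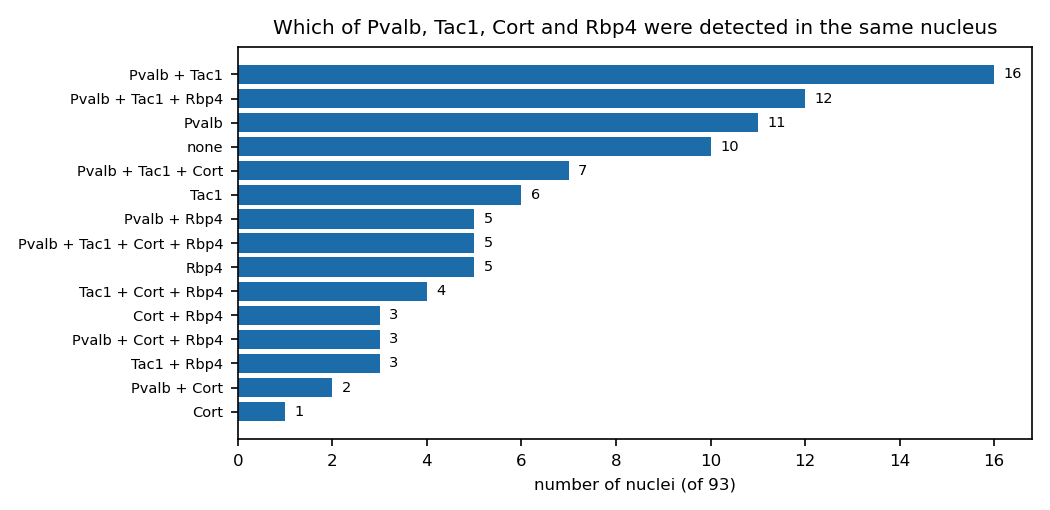
Bars give the number of M2 cortex GABAergic nuclei, on the horizontal axis, in which each combination of Pvalb, Tac1, Cort and Rbp4 was above 0. Pvalb with Tac1 is the most frequent at 16 of 93 nuclei, and 10 nuclei had none of the 4.

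Shares of Rbp4 and of Calb1, the calcium buffer calbindin, were higher in members with Cort, as examples from many pairs. Rbp4 was found in 15 of 25 members with Cort (60%) and in 25 of 68 without (36.8%), with the same order on every plate: 50% against 43.3% on X061616p1, 3 of 3 nuclei against 37.5% on pfcP4 and 62.5% against 27.3% on pfcP6. Calb1 was found in 48% of members with Cort and 16.2% of those without, again in that order on each plate. An order kept on each plate was not particular to these pairs. Over all members, it also went with Npy by Cort (52% with against 25% without) and Npy by Tac1 (41.5 against 20%). Calb1 by Rbp4 (40 against 13.2%) kept its order too. Members with Cort had a median of 4573 detected genes and those without 4166, but on X061616p1 the order was the reverse (4543.5 against 4701), and the part of depth in these pairings was not tested. By contrast Rbp4 was found at similar shares with and without Pvalb (40.98 and 46.9%), and the order of these changed between plates. Members with Rbp4 had more detected genes on each plate, at medians of 4701 against 4646.5 on X061616p1, 3950 against 3807.5 on pfcP4 and 4105 against 3740 on pfcP6.

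Correlations across nuclei were weak. Spearman's rho was taken on each plate and a gene was called where rho was at least 0.3 in size with the same sign on all 3 plates. Of 7807 genes tested, 4 were called positive with Pvalb (0.0512%), 3 with Tac1 (0.0384%), 2 with Rbp4 (0.0256%) and none with Cort (0.0%), while 1 gene was called negative with Cort (0.0128%) and 0 with the others (0.0%). The genes most like Pvalb over its 44, 19 and 30 nuclei were Cdk13, a kinase of transcribing RNA polymerase (rho 0.39, 0.57 and 0.48), Aldh5a1, an enzyme of GABA breakdown (0.32, 0.54 and 0.36), Nav3, a neuron navigator (0.43, 0.55 and 0.32) and Mcmbp, a binding partner of the MCM complex (0.31, 0.32 and 0.31). Epha5, an ephrin receptor, was the closest to Tac1 (0.44, 0.39 and 0.39), ahead of Riok2, a kinase of ribosome assembly, and Ncbp2, a cap-binding protein. Crbn, a ubiquitin ligase adaptor, was the closest to Rbp4 (0.33, 0.42 and 0.34), followed by Moxd1, a monooxygenase (0.39, 0.31 and 0.39). Pttg1, the securin of cell division, was the gene called negative with Cort (-0.35, -0.35 and -0.38). Nuclei of a plate share library preparation and differ in depth, these values are sparse, exons of Aldh5a1, Crbn, Riok2 and Ncbp2 overlap genes on the other strand, and leaving out 1 plate raised the 10 calls to 92 without pfcP4, 17.8 times as many without pfcP6 and 38.4 times as many without X061616p1.

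Genes of MGE interneurons were widespread. Of the 10 on the list, 6 were found in over 50% of members and Lhx8 in none, and a member held a median of 5. Erbb4, a neuregulin receptor, was found in 84 of 93 members (90.3%), at plate means of 198.3, 392.5 and 386.4 TPM, against 2 of 28 Slc17a7 nuclei. Nxph1 was found in 58 members at means of 440, 180.6 and 473.6 TPM, and in 0 of 28 Slc17a7 nuclei, which allows a share of up to 10.7%. Satb1, a chromatin organiser, was found in 71 members at 164.8, 117.7 and 83.1 TPM, but also in 11 of the 28. Lhx6 was found in 51 members, 54.8% (44.2 to 65.2%), at plate means of 140.8, 77.8 and 151.7 TPM, and in 0 of 28. Many Lhx6 values were small, and only 40.9% of members reached 10 TPM.

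Members without Pvalb still carried part of this set. Of the 32, 26 held 3 or more MGE genes, against 60 of 61 members with Pvalb. At 5 or more the counts were 14 of 32 and 39 of 61. Satb1, also found in Slc17a7 nuclei, counts among these genes. Erbb4 was found in 29 of the 32, Nxph1 in 18 and Lhx6 in 16. Outside the MGE list, the Kv3 channel subunits Kcnc1 and Kcnc2 were found in 28 and 30 of the 32, but also in Slc17a7 nuclei. Npy was found in 15 of the 32 and 15 of the 61 with Pvalb, a higher share without Pvalb on each plate (62.5 against 30.6%, 44.4 against 20% and 40 against 13.3%). Among the 10 members with none of the 4 genes, 6 held 3 or more MGE genes, 7 held Npy and 3 held Adarb2, a CGE gene, with a median of 3686 detected genes.

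Markers of other interneuron classes were sparse but extreme in single nuclei. Vip was listed at 0 in all 93 members, which by the same rule of 3 allows a share of up to 3.23%, as was Sncg. 7 or more of the 14 CGE genes were found together in 2 members, and Lamp5 and Adarb2 were found in 4 each. Sst was found in 6 members, and 1 nucleus of X061616p1 held 29152 TPM of Sst and 44086 TPM of Npy with no Pvalb. Without that nucleus the plate mean fell from 670.5 to 8.16 TPM for Sst and from 1671 to 684.7 for Npy. Cck reached 21750 TPM in 1 nucleus of pfcP6 that also held 1294 TPM of Adarb2, and without it that plate's Cck mean fell from 1017.4 to 302.5 TPM. The members thus include single nuclei with high levels of Sst or CGE class genes.

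**Figure D4:**
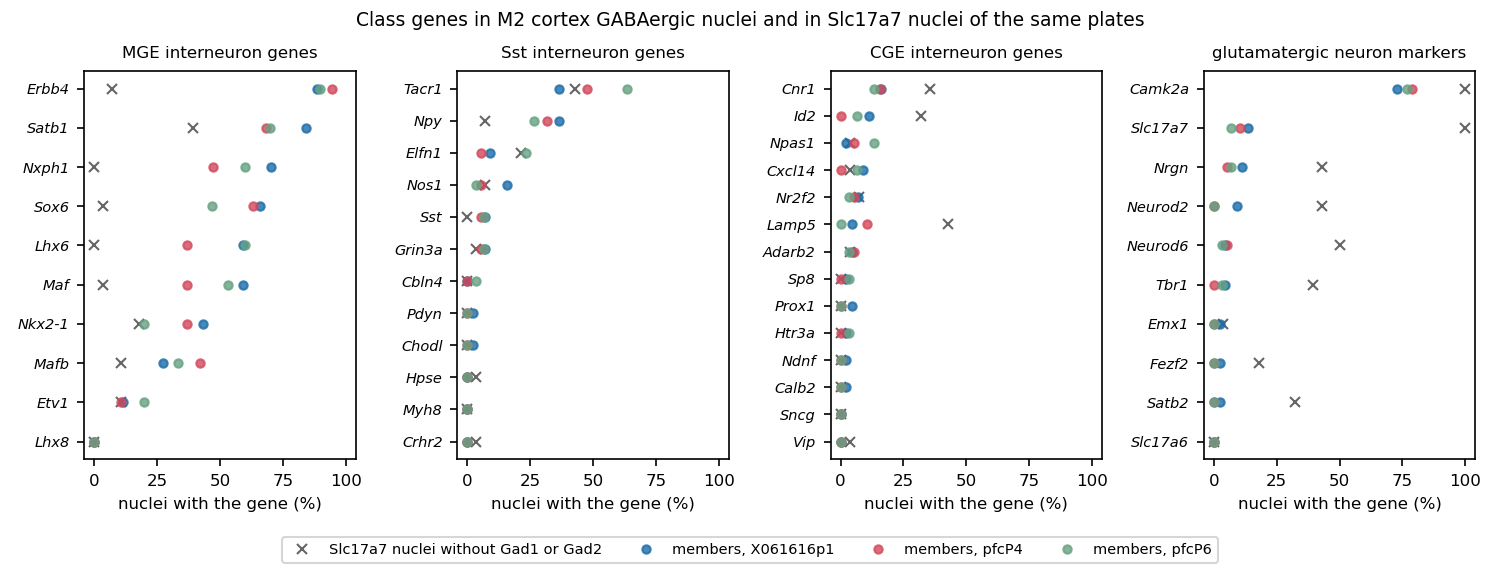
Circles give the percent of M2 cortex GABAergic nuclei with each gene on each of the 3 plates and crosses the percent of 28 Slc17a7 nuclei without Gad1 or Gad2 of the same plates, in 4 panels of class genes. Over all members 8 of 10 MGE genes, 0 of 14 CGE genes, 2 of 12 Sst genes and, of 10 glutamatergic genes, only Camk2a are found in at least 20%.

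Markers of excitatory neurons and glia were sparse. Of 10 glutamatergic genes, Slc17a6 was at 0 in all members and 7 were found in under 5%, but Camk2a was found in 70 members, at plate means of 100.7, 246.1 and 168.7 TPM against 885.2 in the Slc17a7 nuclei. Oligodendrocyte markers summed to between 99.48 and 171.7 TPM on the 3 plates, with Mog and Opalin at 0, and 12 members held 2 or more of the 8. Olig1, Olig2 and Cspg4 of precursors and Cldn5, Pecam1 and Kdr of endothelium were at 0 in every member. Microglial markers summed to 424.3, 230.4 and 213.96 TPM, and 4 members held 4 or more of the 8.

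Other GABA genes differed between plates. Abat, which breaks GABA down, was found in 70 members at means of 214.4, 132.4 and 139.3 TPM. Slc32a1, the vesicular GABA transporter, was found in 44 members, with plate means of 74.6, 0.65 and 26.2 TPM. It was thus near 0 on pfcP4, while Abat kept over 100 TPM on each plate. Dlx5, a homeodomain factor of GABAergic neurons, was found in 32 at plate means of 121.9, 146.8 and 78.7 TPM.

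Channels of fast spiking were found in most members. Kcnc2 was found in 91 members and Kcnc1 in 88, at plate means of 453.6, 577.5 and 561.4 TPM and of 480, 435.1 and 402.9 TPM, against 11 and 12 of 28 Slc17a7 nuclei at 28.01 and 76.6 TPM on average. Kcnab3, a Kv1 beta subunit, was found in 75 members at 330.6, 510.9 and 290 TPM and in 3 of the 28. Kcna1, a Kv1 subunit of axons, did not stand apart in this way, with 71 members (76.3%) and 20 of 28 Slc17a7 nuclei (71.4%). Among sodium channel subunits, Scn1a was found in 86 members at 131.1, 167.96 and 148.5 TPM and Scn8a in 89 at 273.5, 170.4 and 142.7 TPM, against 15 and 28 of the 28.

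Release and net genes followed the same pattern in part. Vamp1, a vesicle SNARE, was found in 68 members at plate means of 675.9, 317.2 and 468.97 TPM, against 9 of 28 Slc17a7 nuclei at 114.2 TPM. Cplx1, complexin, was found in 83 members at 627.6, 143.8 and 418.8 TPM, against 6 of 28 at 52.4 TPM. Bcan, the net lectican brevican, was found in 83 members at 900, 796.3 and 925.9 TPM, against 5 of 28. Acan, the aggrecan core of nets, was found in 19 members at 11.1, 15.9 and 3.22 TPM and in 0 of 28. Hapln4, a link protein of nets, was found in 56 members and in 9 of 28.

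Receptor and metabolic genes gave fewer contrasts. Gria1 and Gria2, AMPA receptor subunits, were found in all members at plate means of 393.8 to 543.2 and 598.3 to 777.1 TPM. Gria4 was found in 88 at 387.7, 796.5 and 716.6 TPM, against 208.2 TPM in the Slc17a7 nuclei. Gabrd, the delta subunit of extrasynaptic GABA-A receptors, had the highest mean over plates of the 12 GABA-A subunits, at 673.2, 176.6 and 480 TPM. Atp5b, an ATP synthase subunit, had plate means of 1306, 592.9 and 982.2 TPM, and Ppargc1a, a regulator of mitochondrial genes enriched in Pvalb cells, 85.2, 97.1 and 23.7 TPM. Of 8 immediate early genes only Nr4a1 was found in over 20% of members. The most abundant transcripts found in at least 95% of members were Rn45s (ribosomal precursor, 69819 TPM), Malat1 (13507), Ipw, Meg3, Snhg11, A130077B15Rik, A630089N07Rik and 4930470H14Rik, ahead of Gapdh, a glycolytic enzyme, and D4Wsu53e.

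M2 members were next set against GABAergic nuclei of somatosensory cortex. A gene was called where the ratio of the means of plate means, on the log2(TPM + 1) scale, was at least 1 in size and every plate of one area lay beyond every plate of the other in both mean TPM and share of nuclei. Of 7742 genes tested, 2.27% were called higher in M2 and 1.47% lower. The call has no error rate, and leaving out a single plate, whichever it was, raised the counts to between 1.51 and 2.77 times as many higher and between 1.94 and 2.97 times as many lower.

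Rbp4 was called higher in M2. Its plate means of 452.97, 366.1 and 368.7 TPM in M2 stood against 112.7 and 14.7 TPM in somatosensory cortex, a log2 ratio of 2.62, and the shares were 45.5, 47.4 and 36.7% against 28.3 and 11.6%. The groups did not overlap, but the 2 somatosensory plates lay far apart, and the ratio was 4.66 without plate scxP10 and 1.80 without scxP9. Tac1 overlapped, with 602.7, 612.5 and 443.2 TPM in M2 and 173.3 and 481.6 TPM in somatosensory cortex. Cort (100.98, 46.4 and 103.97 against 24.04 and 55.3 TPM), Pvalb (270.3, 92.04 and 104.2 against 155.4 and 199.2 TPM) and Lhx6 (140.8, 77.8 and 151.7 against 128.5 and 148.7 TPM) overlapped as well.

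Other genes called higher included a glycosyltransferase, B3galnt1, and the iron-sulphur subunit of succinate dehydrogenase, Sdhb. B3galnt1 had means of 178.6, 156.2 and 181.5 TPM in M2 and 18.6 and 43.5 TPM in somatosensory cortex (log2 ratio 2.43). Sdhb had 248.7, 248.7 and 219.8 TPM against 60.8 and 31.7 TPM (2.35). Hippocampal plate means overlapped those of M2 for both, at 11.4 to 260.2 TPM for B3galnt1 and 178.4 to 410.7 TPM for Sdhb. Cyb5r3, a cytochrome b5 reductase, had the largest ratio at 4.36, with 77.1, 62.3 and 104.04 TPM against 4.41 and 1.58 TPM, but the difference of its mean log2 values was 1.09, and its exons overlap those of Gm49463 on the other strand. The remaining 8 of the 12 largest were Prr13, the ubiquitin-conjugating enzyme Ube2e3, the leak potassium channel Kcnk2, the proteasome subunit Psmd8, the corepressor subunit Tbl1x, Supt20 of the SAGA complex, the cilium gene Tctn1 and the G-protein regulator Rgs4, with ratios of 3.07 to 2.33. Kcnk2, Supt20 and Tctn1 also share exon positions with genes on the other strand.

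Single genes of the synapse and net lists were called lower in M2. They were 1 of 10 tested release genes, 1 of 5 net genes and 1 of 7 AMPA and NMDA subunits. In the same lists 6, 1 and 4 genes had log2 ratios above 0, so the lists did not move as sets. Syt2, the fast calcium sensor of Pvalb terminals, had plate means of 23.1, 4.09 and 45.4 TPM in M2 against 108.3 and 90.6 TPM (log2 ratio -1.99), in 43.2, 10.5 and 23.3% of nuclei against 56.5 and 55.8%. Acan had 11.1, 15.9 and 3.22 against 26.6 and 16.2 TPM (-1.02), close to the threshold. Hippocampal plate means overlapped those of M2 for both Syt2 (19.1 to 180.6 TPM) and Acan (0 to 15.6 TPM). Grin2a, an NMDA receptor subunit, had 32.2, 36.97 and 46.1 against 127.1 and 99.2 TPM (-1.53). Plagl1, an imprinted zinc-finger factor, had the ratio of largest size at -2.86, with 17.3, 1.25 and 5.96 TPM against 71.6 and 59.9 TPM. The others of the 12 largest were the collagen Col24a1, 4932413F04Rik, Pinx1, the polyadenylation factor Cpsf2, Zfp868, 4930579G18Rik, the nucleic-acid-binding Pura, 5830418K08Rik (Cep295 in GENCODE M21), Gm5113 and Gm15319, at -2.79 to -2.00. Exons of 4930579G18Rik, 5830418K08Rik, Cpsf2 and Plagl1 overlap those of genes on the other strand, and reads of such pairs cannot be told apart here.

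Over all genes tested, 3.75% were called in either direction. The counts were 0 of 8 tested MGE genes, 0 of 10 Kv1 and Kv3 genes and 0 of 9 GABA-A subunits, and lists of this size are too short for a count of 0 to be told from that share. Abat was called higher among 5 GABA genes (214.4, 132.4 and 139.3 against 57.3 and 93.7 TPM). Syt2 and Mybpc1 were called lower among 6 tested Pvalb subtype genes. Rarb, a retinoic acid receptor, was called lower beside Rbp4 among 5 retinoid and prostaglandin genes, at a mean of 6.50 against 22.1 TPM, and Esrra, an oestrogen-related receptor, was called lower among 11 oxidative genes, at 25.8 against 57.1 TPM. Tsix, antisense to Xist, was called higher at 69.4 against 15.1 TPM, and its reads cannot be told from those of Xist here. Mybpc1, Rarb and Esrra also overlap exons of genes on the other strand.

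**Figure D5:**
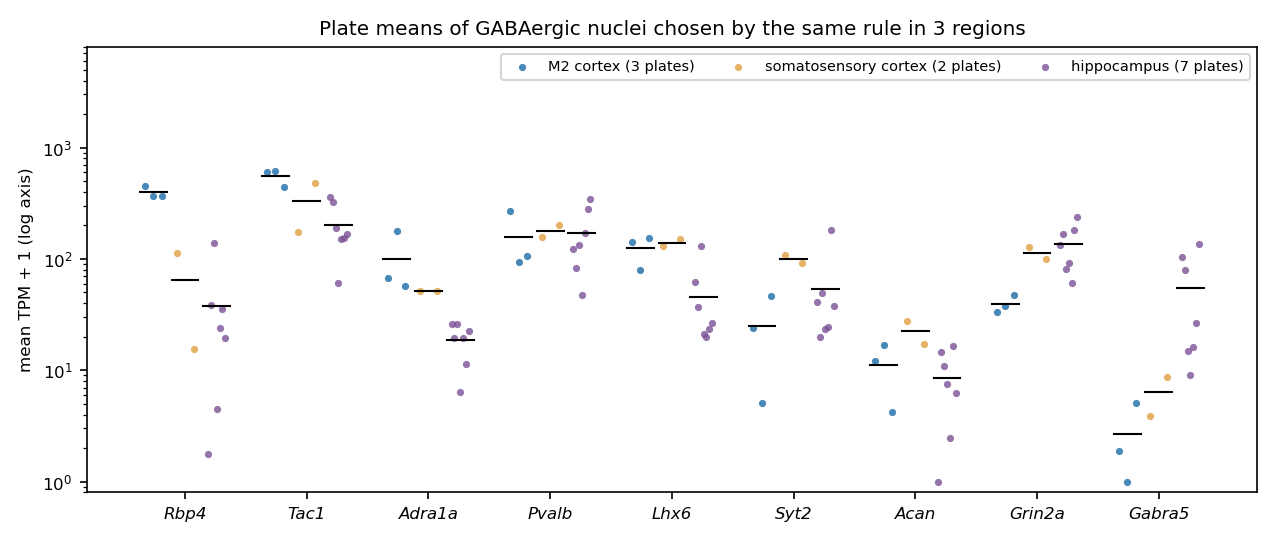
Each point is the mean TPM plus 1, on a log axis, of GABAergic nuclei of 1 plate, for M2 cortex (3 plates), somatosensory cortex (2 plates) and hippocampus (7 plates), with bars at the mean of the plate means. All M2 plates lie above all others for Rbp4 and above all hippocampal plates for Tac1 and Adra1a, while Pvalb overlaps between the 3 areas.

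Against hippocampus, 16 of 9009 genes tested were called higher in M2 (0.178%) and 75 lower (0.833%), 1.01% in either direction. Leaving out X061616p1 gave 33 higher and 3.76 times as many lower, leaving out pfcP6 33 and 1.89 times, and leaving out pfcP4 27 and 1.52 times. Rbp4 was again called higher, with 452.97, 366.1 and 368.7 TPM against 0.78 to 138.8 TPM over the 7 hippocampal plates, a log2 ratio of 3.396. Tac1 was called too, with 602.7, 612.5 and 443.2 TPM against 60.1 to 358.1 TPM (1.46), in 61.4, 52.6 and 53.3% of nuclei against 15.8 to 35.7%. Both comparisons share the M2 plates. Pvalb overlapped, at 270.3, 92.04 and 104.2 against 46.3 to 346.2 TPM, as did Cort against 0 to 83.9 TPM and Lhx6 against 18.8 to 129.2 TPM.

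Adra1a, an adrenoceptor, was called higher in M2 at 66.3, 176.3 and 56.3 TPM against 5.45 to 25.2 TPM (log2 ratio 2.43). Sel1l3 stood at 134.9, 110 and 139.1 TPM against 0.58 to 59.3 TPM (2.92). Capn2, a calpain protease, had almost the same mean on each M2 plate, at 292.1, 297.5 and 292.9 TPM, against 35.2 to 198.2 TPM (1.37). Me3, the mitochondrial malic enzyme, had 244.6, 273.4 and 335.8 TPM against 68.1 to 172.4 TPM (1.37). Kcnip2, a partner of Kv4 channels, had 442.2, 277.8 and 283.5 TPM against 31.1 to 256.3 TPM (1.53), and Kcnh7, a channel of the ERG family, 66.6, 61.2 and 113.2 TPM against 10.6 to 58.5 TPM (1.59). The ubiquitin ligase Pdzrn3 had the largest ratio (3.82), and the inositol phosphatase Inppl1, 3830403N18Rik and the semaphorin receptor Plxnc1 completed the 12. Exons of Capn2, Me3, Kcnh7 and Inppl1 overlap those of genes on the other strand and exons of Plxnc1 those of a gene on the same strand. In somatosensory cortex the 2 plates stood at 564.7 and 668.3 TPM for Capn2, where M2 was called lower, 224.2 and 297.45 for Me3, 449.65 and 572.99 for Kcnip2, 108.9 and 94.9 for Sel1l3 and 50.6 and 51 for Adra1a.

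Genes called lower in M2 included receptor and myelin genes. Gabra5, an alpha subunit of extrasynaptic GABA-A receptors, had plate means of 0.88, 0 and 4.13 TPM in M2 against 8.10 to 135.3 TPM (log2 ratio -4.37), and its exons overlap those of Gm9962 on the other strand. Grin2a had 32.2, 36.97 and 46.1 against 60.4 to 238.04 TPM (-1.79), and Hapln1, a link protein of nets, 9.42, 0 and 4.64 against 12.8 to 155.1 TPM (-3.12). Mbp, a myelin protein, was called lower at -2.65. Igtp, an interferon-induced GTPase, and the protocadherin Pcdh20 were listed at 0 in all M2 members, with 21.8 to 136.1 and 0.46 to 51.7 TPM on hippocampal plates. Exons of Igtp overlap those of Irgm2 on the same strand, so its reads are uncertain, as are those of Rffl, Trf and Junb, which also overlap other genes. Others with ratios of large size were Rprml, the synapse organiser Cbln4, the interferon-induced Oasl2, Plekhb1, Rffl, the iron carrier Trf, Stk32a and Ttr, a carrier of thyroid hormone and of the Rbp4 protein, at -5.51 to -4.10. Scn3b, a sodium channel subunit, and Junb, an immediate early gene, were called lower at -2.34 and -1.47.

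Oligodendrocyte RNA moved with this comparison. The 8 markers summed to 99.48 to 171.7 TPM over M2 plates and 315.2 to 2048 TPM over hippocampal plates, and 12.9% of M2 members against 48.6% of hippocampal ones held 2 or more. With all such nuclei left out only 1 hippocampal plate kept 10 nuclei. Rbp4 (3.70), Tac1 (1.73) and Adra1a (1.69) stayed higher in M2 there, while Gabra5 (0.58), Scn3b (1.63) and Oasl2 (2.75) changed sign and Grin2a stood at -0.10. With nuclei holding 50% or more of another cell type's list left out, 4 hippocampal plates remained, where Gabra5 stood at -4.26 and Grin2a at -1.66. Hippocampal members also had more detected genes, with a median of 5176 against 4217, and the part of either in the calls was not tested.

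With each area restricted to members with Pvalb, Rbp4 stood at 3.25 against somatosensory cortex and at 1.80 against hippocampus, Tac1 at 1.61 against hippocampus and Syt2 at -2.55 against somatosensory cortex. Only 3 hippocampal plates then kept 10 nuclei. Plate names starting X061616 occur in both M2 cortex and hippocampus, and within them, with 1 M2 plate, Rbp4 stood at 4.10, Tac1 at 1.94 and Adra1a at 1.93. Rbp4 was thus higher in M2 in each of these settings, by an amount that moved between 1.80 and 4.10.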

How the data were processed

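A modified Smart-seq2 protocol was run on single nuclei that had been purified through sucrose and sorted into plates of 96 wells, per the labels' protocols. The authors deposited TPM for 23420 genes per nucleus, and column totals of 999999 to 1000001 keep no read depth. RSEM 1.2.87, Bowtie, TopHat2 2.0.10, Seurat 2.2.0 and mm10 are named without roles, per the submitters' processing notes, and the annotation that was counted on is not given in the sources at hand.

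Nuclei were assigned to areas by the labels and to plates by the column names. Members and gene lists were chosen with earlier results of these data known. No doublet caller was run. Areas were compared by means of plate means with 1 TPM added, over plates with at least 10 members and genes with a mean of at least 10 TPM and a share of at least 20% in either area. Python 3.11.15 with numpy 2.4.6, pandas 2.3.3, scipy 1.17.1 and matplotlib 3.10.9 was used, and the calculations were checked on simulated data. The simulated nuclei had no differences between plates, and changes well above the threshold of a call in widely detected genes. That check therefore does not bear on calls near the threshold or on spread over plates. Named genes were the markers, the 12 largest called ratios in each direction, the 4 most abundant and all called members of each list, up to 5 covarying genes per gene and direction, the 10 most abundant and the 10 most variable genes. Only examples from each list are printed, and the further genes Kcna1, Scn1a, Sst, Cck, Vip, Lamp5, Ppargc1a and others given as examples were chosen after their values were seen. Alternatives covered the pseudocount, the filter, the scale, the choice of nuclei and each plate left out. A few named genes are not reported here.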

Additional observations from a re-analysis of the deposited data

How the results depend on the processing

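No paired analysis was possible because the labels give no replicate numbers that link areas and each area counts as 1 sample. Counts of called genes are given here as times the count reported. Leaving out 1 plate gave 1.51 to 2.77 times as many genes called higher and 1.94 to 2.97 times as many lower against somatosensory cortex, and every plate moved both by more than 1.5 times. Against hippocampus the ranges were 1 to 2.06 and 1.12 to 3.76 times, and for covarying genes 9.2 to 38.4 times. With fewer plates the condition of no overlap is easier to meet. Only pfcP plates gave 1.51 and 2.93 times as many higher and lower against somatosensory cortex, no filter 2.17 and 3.78 times, and a pseudocount of 10 TPM 0.597 times as many lower. Against hippocampus, no filter gave 1.69 times as many higher, only X061616 plates 21.5 and 9.64 times as many higher and lower, and only members with Pvalb 2.62 and 3.11 times. There Junb stood at 0.51, a changed sign. Members with Slc17a7 at 0 gave 2.5 times as many covarying genes. The share of Lhx6 at 10 TPM or more was 40.9%.

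Chosen after seeing the data, leaving out nuclei with markers of another cell type gave 1.64 times as many genes lower against hippocampus and 1.7 times as many covarying. Leaving out nuclei with 2 or more oligodendrocyte markers gave 53 and 14.01 times as many higher and lower there, with 1 hippocampal plate left, and Oasl2 (2.75), Gabra5 (0.58) and Scn3b (1.63) changed sign. Of the named called genes, 21 of 31 against somatosensory cortex and 28 of 29 against hippocampus kept their call with the difference of mean log2 values, 20 of 31 and 16 of 29 with only members with Pvalb, 24 of 31 and 15 of 29 without nuclei with markers of another cell type, and 23 of 31 and 17 of 29 without those with 2 or more oligodendrocyte markers. The causes were not tested.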
